A study of Mus musculus with 4 samples.

Results

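The insulin signaling genes described here are 10 genes of the liver's response to insulin and glucagon, chosen by name: the insulin receptor Insr, its substrates Irs1 and Irs2, the PI3K subunit Pik3r1, the kinases Akt1 and Akt2, the transcription factors Foxo1 and Foxo3, their coactivator Ppargc1a and the glucagon receptor Gcgr. They were taken by symbol from 48709 genes in the count files, and all 10 were among the 13699 kept by a filter on low counts. Liver mRNA was sequenced from untreated adult C57BL/6 mice, in 2 WT libraries and 2 libraries labelled DDI2-KO. The WT mice were littermates with floxed Ddi2 but no Cre recombinase. Mice of either sex entered the study, and the sex behind each library is not given in the sources used here. In DDI2-KO mice the same allele is combined with Cre under the albumin promoter, which is active in hepatocytes, so liver cells that never use that promoter keep Ddi2. The comparison was used here to ask whether these genes, and genes that follow them, bear marks of the fed or the fasted state. Whether the mice were fed or fasted, and the hour at which livers were taken, are not given in the sources used here.

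Insulin, released after a meal, binds its receptor on hepatocytes, and the activated receptor phosphorylates the substrates IRS1 and IRS2. These recruit PI3K, whose lipid product brings AKT to the membrane, and AKT phosphorylates FOXO1 and FOXO3, which then leave the nucleus. In fasting, low insulin and high glucagon leave FOXO1 in the nucleus, where with the coactivator PGC-1alpha, the product of Ppargc1a, it drives genes of glucose production. Irs2 and Ppargc1a are themselves known to be raised by fasting in liver, whereas most steps of the relay are controlled by phosphorylation, which mRNA counts do not show.

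WT libraries 1 and 2 held 34109018 and 31532247 reads on genes, with 25582344 and 22501208 in those labelled DDI2-KO. Genes with reads numbered 18702 and 18627 in WT, with 17658 and 17419 in those labelled DDI2-KO. Depth thus differed between the groups, and its part in the results was not tested. A floor of 3 counts stood for 0.0892 to 0.131 CPM (counts relative to the library size after TMM scaling), which covers counting error only. Nothing in the labels says whether replicates came from separate litters, so p-values measure the spread between these libraries. The libraries labelled DDI2-KO had no less of the targeted gene Ddi2 than WT (4749 and 3812 reads in WT, 4068 and 3777 in the others, log2 fold change 0.28, standard error 0.17, adjusted p = 0.349 from edgeR), and counts for whole genes do not separate the part that Cre removes. Hepatocyte markers were high in every library. The 8 listed genes summed to 164000 and 183000 CPM in WT libraries 1 and 2, with 152000 and 155000 CPM in those labelled DDI2-KO. Alb was lower in both libraries labelled DDI2-KO, 3 of the 8 were higher and 4 overlapped. By contrast, 5 pancreatic islet genes, among them Ins1, Ins2 and Gcg, had 0 reads in all 4 libraries. Summed Kupffer cell markers came to 596 to 691 CPM in WT, with 723 to 846 CPM in those labelled DDI2-KO. Of these markers, Vsig4, Cd5l and Adgre1 were higher in both libraries labelled DDI2-KO and Marco lower, while Clec4f, Timd4 and Csf1r overlapped. Bile duct markers came to 53.1 to 56.5 CPM in WT and 68.8 to 70.5 CPM in those labelled DDI2-KO. Most of the bile duct sum was Spp1, at 51.9 and 46.3 CPM in WT libraries 1 and 2, with 64.2 and 62.4 CPM in those labelled DDI2-KO. Krt19 was also higher in both libraries labelled DDI2-KO, whereas Krt7, Epcam and Sox9 overlapped between the groups. Stellate cell markers came to 656 to 714 CPM in WT and 584 to 599 CPM in the others. Lrat and Ecm1 were lower in both libraries labelled DDI2-KO, while the other 5 of the 7 overlapped. Of 6 adipocyte markers, 3 were at 0 in all libraries. Of the 7 endothelial markers, Stab2 alone passed the test, and was lower (73.7 and 61.2 CPM against 32.9 and 29.9 CPM, adjusted p = 0.0288 from edgeR). Lyve1 and Gpr182 were lower in both libraries labelled DDI2-KO, Clec4g and Kdr were higher in both, and Pecam1 and Oit3 overlapped. The sum of the 7, which includes Stab2, was 404 to 435 CPM against 377 to 404 CPM. In whole liver, fewer cells of a type and less RNA per cell cannot be told apart, and the part of other cells in the results was not tested.

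None of the 10 genes passed an adjusted p of 0.05 in edgeR's quasi-likelihood test. An unadjusted p under 0.05 was found for 1 of them (Ppargc1a, 10%), against 23.5% of all genes tested. The adjusted threshold was passed by 2.53% of all genes tested, where 1.33% rose and 1.2% fell with the DDI2-KO label. Those that rose were 52.6% of all calls, and 39.7% with upper-quartile scaling. DESeq2 called 1 of the 10, Ppargc1a, where it called 907 of 12509 genes in all, and limma-voom and limma-trend called 0 of the 10. Fitted values were below 0 for 8 genes and above 0 for Akt1 and Akt2, with a median log2 fold change of -0.18, against -0.015 over all genes tested. Irs2, Pik3r1, Foxo1 and Ppargc1a were lower in each library labelled DDI2-KO than in either WT library. These 4 genes are 40% of the members, where 27.7% of all genes tested did the same, and none lay above, where 28% of all genes did.

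**Figure D1:**
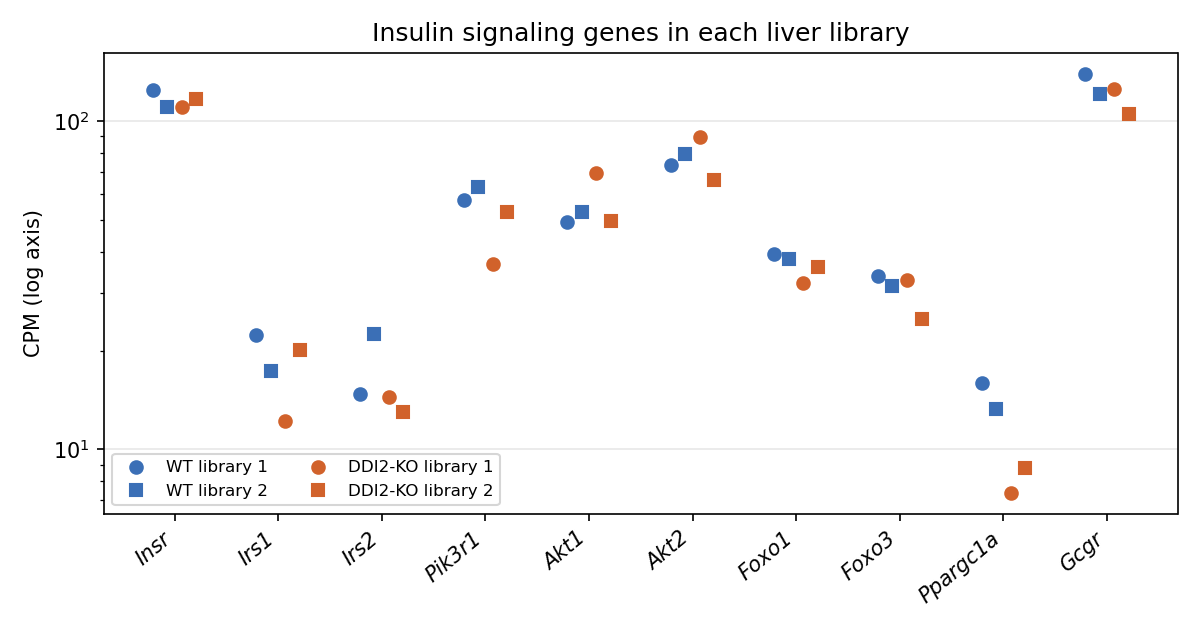
CPM on a log axis of the 10 insulin signaling genes in each library, blue for WT and orange for the libraries labelled DDI2-KO, with circles for library 1 and squares for library 2. In Ppargc1a the groups are the farthest apart, at 13.3 CPM or more in WT and 8.79 CPM or less in the others, while most other genes overlap or nearly touch.

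Levels of different genes are compared per kilobase of annotated exon. Averaged over the 4 libraries, Gcgr was highest at 46.8 ± 5.43 CPM per kb (SD, n = 4), above 94.5% of the genes tested, and its lowest library (40 CPM per kb) lay above the highest of every other member. Akt1 (13.5 ± 2.32 CPM per kb, SD, n = 4) and Akt2 (10.8 ± 1.35) followed, with overlapping ranges, although Akt1 was above Akt2 in all 4 libraries. Insr (8.38 ± 0.503 CPM per kb) overlapped with neither Akt2 above it nor Pik3r1 below it. Pik3r1 (5.21 ± 1.12 CPM per kb), Foxo1 (4.2 ± 0.362) and Foxo3 (4.05 ± 0.524) overlapped in turn and are not ordered by these data. Irs2 (2.56 ± 0.673 CPM per kb), Irs1 (1.97 ± 0.473) and Ppargc1a (1.72 ± 0.603) were lowest, each overlapping with the next, and Ppargc1a lay above 41.2% of the genes tested. The glucagon receptor was 4.71 to 6 times as abundant per kb as the insulin receptor in every library.

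Insr (ENSMUSG00000005534, chromosome 8, 3122061 to 3279617, minus strand, GRCm38) encodes the receptor that starts the relay. It stood at 124 and 110 CPM in WT libraries 1 and 2, with 110 and 117 CPM in those labelled DDI2-KO. The second library labelled DDI2-KO lay between the WT libraries, and the groups overlapped (log2 fold change -0.051, standard error 0.16, 95% interval -0.43 to 0.33, adjusted p = 0.883 from edgeR). Gcgr (chromosome 11, 120530699 to 120538986, plus strand), whose product opposes insulin through cyclic AMP, stood at 139 and 121 CPM in WT libraries 1 and 2, with 125 and 105 CPM in those labelled DDI2-KO. Here too the groups overlapped (log2 fold change -0.18, standard error 0.18, 95% interval -0.59 to 0.23, adjusted p = 0.586 from edgeR). Neither receptor differed by more than the spread between libraries.

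Irs1 (chromosome 1, 82233101 to 82291416, minus strand) and Irs2 (chromosome 8, 10984681 to 11008458, minus strand) encode the docking proteins through which the receptor reaches PI3K. Irs1 stood at 22.3 and 17.3 CPM in WT libraries 1 and 2, with 12.2 and 20.1 CPM in those labelled DDI2-KO. The first library labelled DDI2-KO was the lowest of the 4 and the second lay within the WT range (log2 fold change -0.3, standard error 0.26, 95% interval -0.9 to 0.3, adjusted p = 0.532 from edgeR). Irs2 stood at 14.8 and 22.5 CPM in WT libraries 1 and 2, with 14.4 and 13 CPM in those labelled DDI2-KO. WT library 2 stood above the other 3 libraries, which lay close together (log2 fold change -0.44, standard error 0.22, 95% interval -0.96 to 0.072, adjusted p = 0.272 from edgeR). Without WT library 2 the log2 fold change of Irs2 was -0.12 (adjusted p = 0.891 from edgeR), so the size of its lower fitted value depends on that library. Per kb of exon, Irs1 over Irs2 was 1.04 and 0.533 in WT, with 0.587 and 1.07 in those labelled DDI2-KO, so neither substrate was the more abundant in a whole group. The annotated gene Gm9747 on the opposite strand covers 30.9% of the exon bases of Irs1, and had 0 reads in every library. Since the strand setting of the counting is not given, this does not show whether reads of that stretch were kept for Irs1.

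Irs1 and Irs2 are shown by sequence because both have, in the bases before their start, the letters of the insulin response sequence, CAAAACA or TGTTTTG on the other strand, through which FOXO1 is known to act at several insulin-controlled genes. Of the 10 genes, 9 matched RefSeq's promoter windows on GRCm38.p6 (Insr was not matched), with 14 windows, 2 of which held the letters within 250 bases before a start, as did 5.56% of the 32851 windows searched. In the sequences below, 5′ to 3′ along the gene, capitals mark these letters, which begin 111 and 32 bases before the RefSeq start in Irs1 and 37 bases before it in Irs2.
Irs1, chr1:82291440-82291689, minus strand: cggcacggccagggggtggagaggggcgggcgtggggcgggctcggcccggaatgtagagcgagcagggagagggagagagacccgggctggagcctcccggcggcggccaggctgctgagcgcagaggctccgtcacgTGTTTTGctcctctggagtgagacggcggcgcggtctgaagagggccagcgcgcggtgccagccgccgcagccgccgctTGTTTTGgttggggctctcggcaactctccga
Irs2, chr8:11008930-11009179, minus strand: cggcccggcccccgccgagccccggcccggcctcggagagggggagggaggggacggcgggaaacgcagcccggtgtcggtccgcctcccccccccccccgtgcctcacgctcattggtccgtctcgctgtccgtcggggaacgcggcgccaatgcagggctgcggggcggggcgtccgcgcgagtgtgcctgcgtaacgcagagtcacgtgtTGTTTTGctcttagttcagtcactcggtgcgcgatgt
A match of letters is a description and not a measured binding site, and neither gene passed the test. A FOXO site spelled TGTTTAC or GTAAACA occurred in 1 of the 14 windows, that of Akt1, and in 3.17% of all windows.

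Pik3r1 (chromosome 13, 101680563 to 101768217, minus strand) encodes p85alpha, the regulatory subunit that holds PI3K to the IRS proteins. It stood at 57.6 and 62.9 CPM in WT libraries 1 and 2, with 36.7 and 53 CPM in those labelled DDI2-KO. Both libraries labelled DDI2-KO were below WT, but the second was close to it (log2 fold change -0.43, standard error 0.2, 95% interval -0.88 to 0.03, adjusted p = 0.239 from edgeR). Leaving out 1 library at a time gave log2 fold changes from -0.71 to -0.18, none of which passed. For the catalytic subunit Pik3ca the log2 fold change was 0.032 (adjusted p = 0.929 from edgeR), with overlapping groups.

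Akt1 (chromosome 12, 112653821 to 112674884, minus strand) and Akt2 (chromosome 7, 27591552 to 27640826, plus strand) encode the kinases that carry the signal to FOXO factors, glycogen synthesis and lipid synthesis, AKT2 being the main form in insulin-responsive metabolism. Akt1 stood at 49.4 and 52.8 CPM in WT libraries 1 and 2, with 69.2 and 49.7 CPM in those labelled DDI2-KO. The first library labelled DDI2-KO was the highest of the 4 and the second lay within the WT range (log2 fold change 0.22, standard error 0.19, 95% interval -0.22 to 0.65, adjusted p = 0.532 from edgeR). Without that first library the log2 fold change of Akt1 was -0.037. Akt2 stood at 73.6 and 79.3 CPM in WT libraries 1 and 2, with 89.2 and 66.3 CPM in those labelled DDI2-KO. Its libraries labelled DDI2-KO were the highest and the lowest of the 4 (log2 fold change 0.025, standard error 0.19, 95% interval -0.4 to 0.45, adjusted p = 0.952 from edgeR). Per kb, Akt2 over Akt1 was 0.856 and 0.864 in WT, with 0.741 and 0.768 in those labelled DDI2-KO, values that do not overlap, a description chosen after they were seen. The count of Akt2 is less certain, since 16% of the 50-base windows of its longest transcript are found in other genes too, mostly in the pseudogene Akt2-ps.

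Foxo1 (chromosome 3, 52268336 to 52353221, plus strand) and Foxo3 (chromosome 10, 42181841 to 42276755, minus strand) encode the factors that AKT keeps out of the nucleus. Foxo1 stood at 39.4 and 38 CPM in WT libraries 1 and 2, with 32.2 and 35.9 CPM in those labelled DDI2-KO. The groups did not overlap, but the gap was small against the error of the fit (log2 fold change -0.19, standard error 0.16, 95% interval -0.54 to 0.17, adjusted p = 0.515 from edgeR). Foxo3 stood at 33.7 and 31.5 CPM in WT libraries 1 and 2, with 32.7 and 24.9 CPM in those labelled DDI2-KO. The first library labelled DDI2-KO lay between the WT libraries and the second was the lowest (log2 fold change -0.18, standard error 0.18, 95% interval -0.6 to 0.24, adjusted p = 0.604 from edgeR). The fitted value of Foxo1 stayed below 0 in all 15 alternative fits, from -0.26 to -0.11, and Foxo3 reversed to 0.014 without the second library labelled DDI2-KO.

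Ppargc1a (ENSMUSG00000029167, chromosome 5, 51454250 to 51567726, minus strand) encodes PGC-1alpha, which fasting and glucagon are known to raise in liver and which works with FOXO1 at genes of glucose production. Its reads numbered 536 and 411 in WT and 191 and 202 in the others, or 15.9 and 13.3 CPM in WT libraries 1 and 2, with 7.38 and 8.79 CPM in those labelled DDI2-KO. Means were 14.6 ± 1.87 CPM (SD, n = 2) and 8.08 ± 0.998 CPM (SD, n = 2), and the groups lay well apart, the fitted level being 1.81-fold lower with the DDI2-KO label (log2 fold change -0.86, standard error 0.2, 95% interval -1.32 to -0.39, adjusted p = 0.065 from edgeR). This was the largest difference among the 10 genes and missed the threshold. Its adjusted p was under 0.05 in 4 of the 15 alternatives, among them DESeq2 (0.0337), the fit in which low counts were not filtered (0.00759) and that with offsets for exon length and GC content (0.0446), and it ranged up to 0.309 over the alternatives, with a log2 fold change between -0.98 and -0.72. Its relative Ppargc1b, also a coactivator, was named after its values were seen, at 3.33 and 4.24 CPM in WT and 1.85 and 0.74 CPM in the others (adjusted p = 0.0868 in edgeR's test and 0.0367 in DESeq2, log2 fold change -1.53).

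The promoter of Ppargc1a is shown because cyclic AMP, the messenger of glucagon, is known to raise this gene through CREB, and Creb1 is among the genes below. Its window held no insulin response letters and no full cyclic AMP response element (TGACGTCA, in 1.55% of all windows and in 0 of the 14), but it held the shorter core of that element, TGACG or CGTCA on the other strand, set in capitals and beginning 49 bases before the RefSeq start.
Ppargc1a, chr5:51567727-51567975, minus strand: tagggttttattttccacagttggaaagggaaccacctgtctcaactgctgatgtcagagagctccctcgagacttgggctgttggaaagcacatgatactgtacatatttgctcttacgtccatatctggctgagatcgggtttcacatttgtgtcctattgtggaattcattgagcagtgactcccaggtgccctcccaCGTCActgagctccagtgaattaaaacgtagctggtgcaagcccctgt
This core is contained in the full element and is common, found in 17.8% of all windows and in 6 of the 14 windows of these members.

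**Figure D2:**
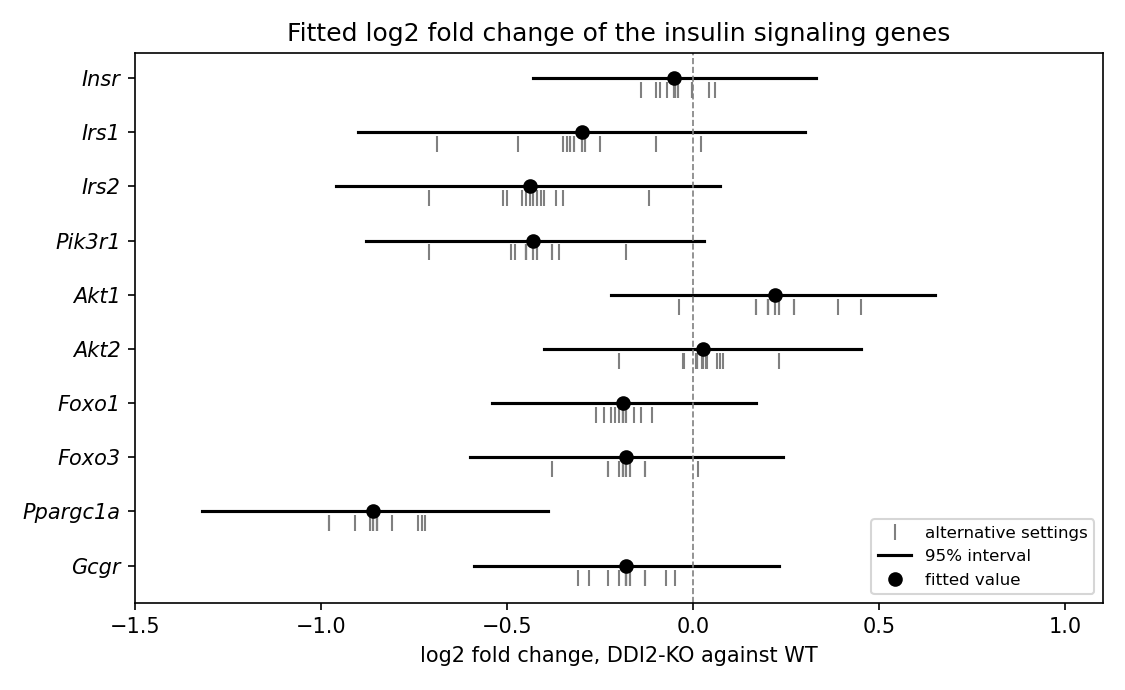
Fitted log2 fold change of each insulin signaling gene, libraries labelled DDI2-KO against WT (points), with its 95% interval before adjustment (black lines) and the values of the 15 alternative fits (grey ticks). The interval of Ppargc1a, -1.32 to -0.39, is the single one that leaves out 0, and ticks lie on both sides of 0 for Insr, Irs1, Akt1, Akt2 and Foxo3.

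The remaining steps of the relay, from Igf1r and adaptor proteins through PI3K and the kinases around AKT to the mTOR branch, were listed as 36 genes, of which 35 were tested. None passed in edgeR's test, DESeq2, limma-voom or limma-trend, and 6 had an unadjusted p under 0.05 (17.1%, against 23.5% of all genes tested). Fitted values ran from -1.1 for the adaptor Sh2b2 to 0.43 for the AKT-activating kinase Pdpk1, with a median of -0.091, and 20 were below 0. The libraries labelled DDI2-KO were both below WT in 14 of them (40%) and both above it in 5 (14.3%), as in 27.7% and 28% of all genes tested. Igf1r, the receptor for IGF-1, had low levels in every library, at 2.89 and 3.66 CPM in WT libraries 1 and 2, with 2.2 and 2.22 CPM in those labelled DDI2-KO (log2 fold change -0.56, standard error 0.28, 95% interval -1.21 to 0.079, adjusted p = 0.264 from edgeR).

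Of 19 genes that damp the signal, such as phosphatases and SOCS proteins, 18 were tested and none passed in edgeR's test, DESeq2, limma-voom or limma-trend, with 6 at an unadjusted p under 0.05 (33.3%, against 23.5% of all genes tested) and a median log2 fold change of 0.014. Ptpn1, which dephosphorylates the receptor, stood at 17.9 and 19.1 CPM in WT libraries 1 and 2, with 21.8 and 15.7 CPM in those labelled DDI2-KO (log2 fold change 0.019, adjusted p = 0.965 from edgeR). Trib3, an inhibitor of AKT, spread as widely within groups as between them, at 8.51 and 5.66 CPM in WT libraries 1 and 2, with 9.66 and 3.7 CPM in those labelled DDI2-KO (adjusted p = 0.937 from edgeR).

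Of 12 listed FOXO relatives and partners, 11 were tested. None passed in edgeR, limma-voom or limma-trend, and 3 had an unadjusted p under 0.05 (27.3%, against 23.5% of all genes tested). DESeq2, which called 907 of 12509 genes, called Cebpa (log2 fold change 0.67, adjusted p = 0.0365) and Ppargc1b, both named for that call. The 11 genes had a median log2 fold change of -0.23, and it was 0.061 without WT library 1.

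Of 18 genes of glucagon and cyclic AMP signaling, all tested, none passed in edgeR's test, DESeq2, limma-voom or limma-trend, and 5 had an unadjusted p under 0.05 (27.8%, against 23.5% of all genes tested). Their median log2 fold change was -0.1. Prkaca, the catalytic subunit of protein kinase A, was higher in both libraries labelled DDI2-KO, at 51 and 49.7 CPM in WT libraries 1 and 2, with 69.7 and 66.6 CPM in those labelled DDI2-KO (log2 fold change 0.44, standard error 0.15, 95% interval 0.095 to 0.78, adjusted p = 0.133 from edgeR). Creb1, the factor that this kinase phosphorylates, stood at 17.6 and 16.9 CPM in WT libraries 1 and 2, with 8.77 and 11.9 CPM in those labelled DDI2-KO (log2 fold change -0.74, standard error 0.2, 95% interval -1.21 to -0.28, adjusted p = 0.0839 from edgeR). Its coactivator Crtc2 stood at 37.8 and 34.4 CPM in WT libraries 1 and 2, with 24.7 and 26.9 CPM in those labelled DDI2-KO (log2 fold change -0.49, standard error 0.16, 95% interval -0.85 to -0.12, adjusted p = 0.124 from edgeR). All 3 had groups that do not overlap, in opposite directions for the kinase and the factors, and none passed. Of the 18 genes, 44.4% lay below WT in this way and 22.2% above it, against 27.7% and 28% of all genes tested. Over the alternatives the log2 fold change of Creb1 ranged from -0.97 (without the second library labelled DDI2-KO, adjusted p = 0.0393 from edgeR) to -0.39 (with offsets for exon length and GC content, 0.147).

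Genes that fasting or FOXO1 is known to raise were listed as 26. In edgeR's test 3 rose, 0 fell and 23 did not pass. Thus 11.5% passed, all higher, where 2.53% of all genes tested passed in either direction and 1.33% passed and were higher. The list was chosen with earlier results of these data known, so its shares are a description. The 26 genes had a median log2 fold change of 0.024. DESeq2 called 5 of them, where it called 907 of 12509 genes in all. The 5 were the 3 that passed in edgeR's test, Txnip (log2 fold change 0.73, adjusted p = 0.00591 from DESeq2) and, in the other direction, Cyp4a14 (-1.52, 0.000125). Txnip and Cyp4a14 were named after their values were seen. Cyp4a14, a fatty acid hydroxylase from a family of similar genes between which reads may be split, stood at 804 and 358 CPM in WT libraries 1 and 2, with 164 and 239 CPM in those labelled DDI2-KO, the largest fitted fall of the list (log2 fold change -1.53, adjusted p = 0.105 from edgeR). Without WT library 2 it passed (-2, 0.00342). Pdk4, which slows the burning of glucose by blocking pyruvate dehydrogenase, rose 4.97-fold, at 6.78 and 6.93 CPM in WT libraries 1 and 2, with 35.5 and 32.6 CPM in those labelled DDI2-KO (log2 fold change 2.31, standard error 0.17, 95% interval 1.92 to 2.71, adjusted p = 0.00911 from edgeR). The libraries of each group lay almost together, and the call held in all 15 alternatives. G6pc, the last enzyme of hepatic glucose release, rose 3.5-fold, at 119 and 71.5 CPM in WT libraries 1 and 2, with 259 and 409 CPM in those labelled DDI2-KO (log2 fold change 1.81, standard error 0.31, 95% interval 1.07 to 2.55, adjusted p = 0.0429 from edgeR). It lost the call without either library labelled DDI2-KO (adjusted p = 0.0567 and 0.0947 from edgeR) and with the offsets for length and GC content (0.0559). Gadd45b, a stress gene, rose 3.53-fold from a low level, at 0.952 and 1 CPM in WT libraries 1 and 2, with 3.09 and 3.83 CPM in those labelled DDI2-KO (adjusted p = 0.0361 from edgeR), and lost the call without WT library 1 (0.109) or WT library 2 (0.0712) and under limma-voom (0.0504).

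Other well-known genes of the same list did not pass. Pck1, the enzyme that commits carbon to glucose synthesis, stood at 919 and 698 CPM in WT libraries 1 and 2, with 884 and 566 CPM in those labelled DDI2-KO, with overlapping groups (log2 fold change -0.16, standard error 0.25, 95% interval -0.74 to 0.42, adjusted p = 0.748 from edgeR). Igfbp1, a secreted protein that insulin is known to repress quickly, differed more between the WT libraries than between group means, at 16.9 and 65.8 CPM in WT libraries 1 and 2, with 58.8 and 119 CPM in those labelled DDI2-KO (log2 fold change 1.1, standard error 0.85, 95% interval -1.47 to 3.68, adjusted p = 0.528 from edgeR). With 1 library left out, its log2 fold change ranged from 0.43 (without WT library 1, adjusted p = 0.679 from edgeR) to 2.39 (without WT library 2, 0.0415). Of the 10 insulin signaling genes, Irs2 and Ppargc1a are also known to be raised by fasting, though not on this list. Their fitted values were below 0, but neither passed, and that of Irs2 was -0.12 without WT library 2. What these values say of the feeding state was not tested.

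G6pc and Igfbp1 are shown because their promoters are textbook examples of FOXO1 control by insulin. The stretches end before the annotated transcripts, and capitals mark the same insulin response letters as in Irs1 and Irs2, beginning 174 bases before the RefSeq start in G6pc and 108 before it in Igfbp1. The Pdk4 window held none of the motifs searched.
G6pc, chr11:101367466-101367560, plus strand: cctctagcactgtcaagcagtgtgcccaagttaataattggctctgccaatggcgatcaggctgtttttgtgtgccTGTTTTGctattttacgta
Igfbp1, chr11:7197537-7197781, plus strand: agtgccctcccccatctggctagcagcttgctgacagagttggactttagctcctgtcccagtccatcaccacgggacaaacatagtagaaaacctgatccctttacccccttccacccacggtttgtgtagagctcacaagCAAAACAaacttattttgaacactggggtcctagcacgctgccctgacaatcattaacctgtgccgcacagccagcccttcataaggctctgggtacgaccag
The letters were present in G6pc, which passed, and in Igfbp1, Irs1 and Irs2, which did not. No link between the letters and the fold changes was tested.

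Genes that feeding or insulin is known to raise were also listed as 26. In edgeR's test 2 of them rose, 0 fell and 24 did not pass. Thus 7.69% passed, all higher, where 2.53% of all genes tested passed in either direction and 1.33% passed and were higher. This list too was chosen with earlier results of these data known, so its shares are a description. The 26 genes had a median log2 fold change of 0.66. In 14 of them (53.8%) each library labelled DDI2-KO was higher than either WT library, as in 28% of all genes tested. Without WT library 1 this median was 0.36, and without the first library labelled DDI2-KO it was 0.21. The count of genes called was 9 in DESeq2, where Mlxipl was lower (log2 fold change -0.58, adjusted p = 0.0456) and the others higher, and 7 when low counts were not filtered, and with 1 library left out it was 1 (WT library 1), 4 (WT library 2 or the first library labelled DDI2-KO) or 7 (the second). Over all genes, DESeq2 called 907 of 12509, and the fit without a low-count filter called 1544. Me1, which supplies NADPH for fat synthesis, rose 3.17-fold, at 75.2 and 77.9 CPM in WT libraries 1 and 2, with 239 and 246 CPM in those labelled DDI2-KO (log2 fold change 1.66, standard error 0.17, 95% interval 1.28 to 2.04, adjusted p = 0.0103 from edgeR). Its count is less certain, since 26.5% of the 50-base windows of its longest transcript are found in other genes too, mostly in Gm7049. Pnpla5, a lipase relative, rose 6.57-fold from 8 and 13 reads in WT to 54 and 52 in the others (log2 fold change 2.72, standard error 0.42, 95% interval 1.75 to 3.69, adjusted p = 0.0295 from edgeR), and without WT library 1 its adjusted p was 0.0822.

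Genes of this list that are known for their response to insulin did not pass. Srebf1, the insulin-responsive factor of fat synthesis, stood at 133 and 330 CPM in WT libraries 1 and 2, with 151 and 184 CPM in those labelled DDI2-KO (log2 fold change -0.47, standard error 0.42, 95% interval -1.52 to 0.58, adjusted p = 0.558 from edgeR). WT library 2 was the highest of the 4 and WT library 1 the lowest, and without WT library 2 the fitted value of Srebf1 reversed to 0.33. Fasn, the fatty acid synthase, had overlapping groups, at 353 and 533 CPM in WT libraries 1 and 2, with 578 and 320 CPM in those labelled DDI2-KO (adjusted p = 0.977 from edgeR). Pnpla3, a lipid remodelling enzyme under SREBP control, stood at 8.15 and 20.6 CPM in WT libraries 1 and 2, with 28.4 and 45.4 CPM in those labelled DDI2-KO (log2 fold change 1.36, standard error 0.51, 95% interval 0.024 to 2.7, adjusted p = 0.209 from edgeR), and passed in 3 of the 15 alternatives, DESeq2 among them (adjusted p = 0.00458). With 1 library left out, its log2 fold change ranged from 0.84 (without WT library 1, adjusted p = 0.281 from edgeR) to 2.18 (without WT library 2, 0.0111).

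**Figure D3:**
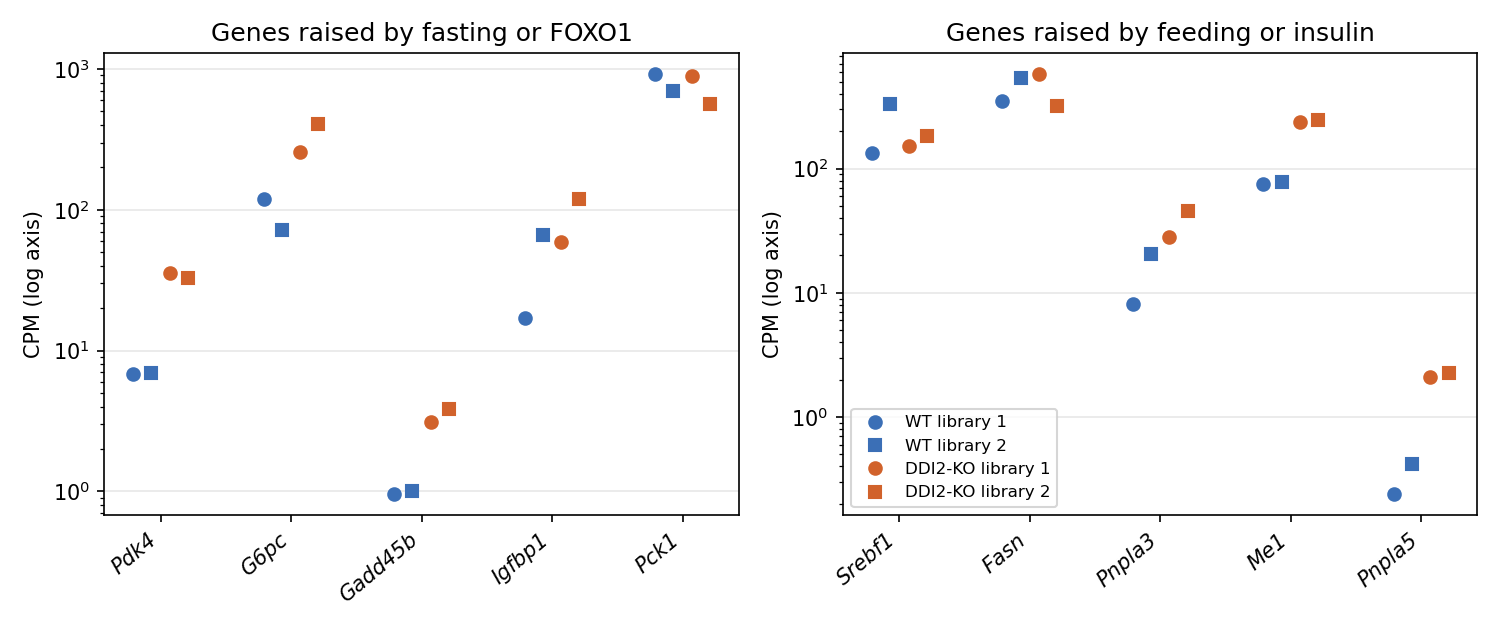
CPM on a log axis in each library for named genes that fasting or FOXO1 is known to raise (left) and that feeding or insulin is known to raise (right), blue for WT, orange for the libraries labelled DDI2-KO, circles for library 1 and squares for library 2. Pdk4, G6pc, Gadd45b, Me1 and Pnpla5 separate the groups and passed the test, while Srebf1 differs more between the WT libraries than between the groups.

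The WT libraries themselves differed in these genes. The median absolute log2 difference between WT library 2 and WT library 1 was 0.54 over the 26 feeding-raised genes, 0.38 over the fasting-raised genes and 0.15 over the 10 insulin signaling genes, against 0.19 over all genes tested. Between the libraries labelled DDI2-KO it was 0.5, 0.36 and 0.32, against 0.27 over all genes. Of 15 listed genes of the circadian clock, 3 passed in edgeR's test (20%, against 2.53% of all genes tested) and 12 did not. This share is a description, since the lists were chosen with earlier results of these data known. Those that passed were Per1 (log2 fold change -1.27, adjusted p = 0.0438 from edgeR), Nr1d2 (-1.08, 0.0289) and Nfil3 (1.18, 0.0345). The 15 clock genes had a median log2 fold change of -0.62 and a median absolute difference of 0.85 between the WT libraries. Their part in the results was not tested, and genotype cannot be told apart from the hour or the feeding state at collection where these differed between the groups.

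**Figure D4:**
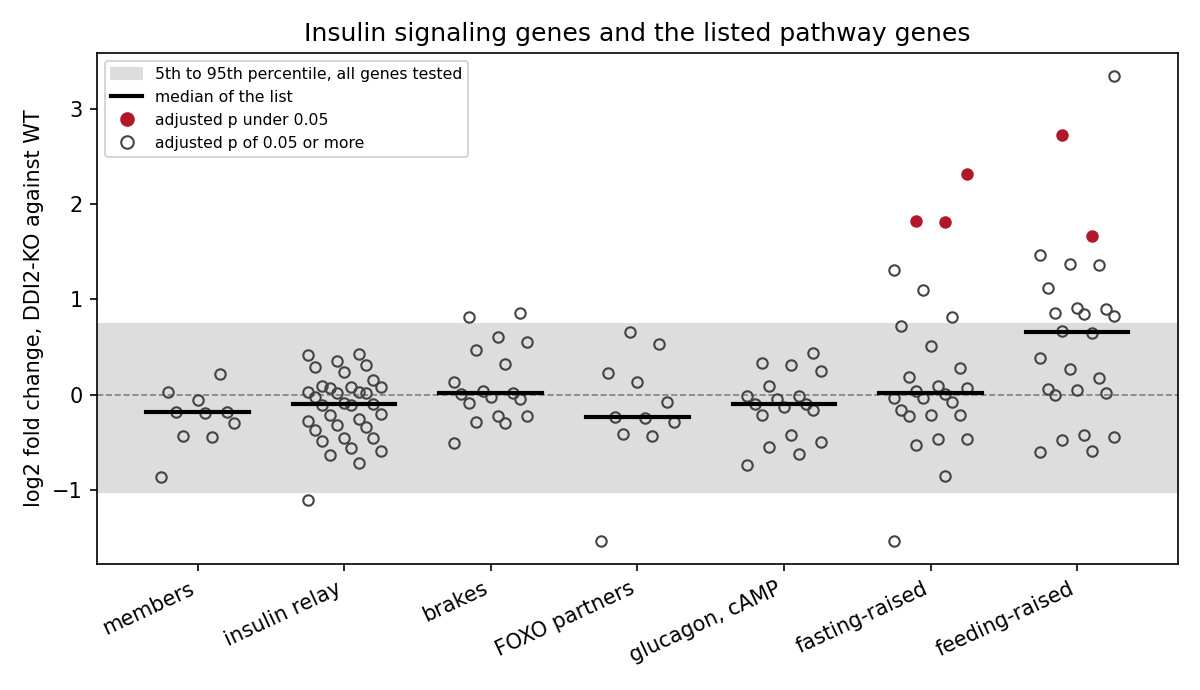
Log2 fold change, libraries labelled DDI2-KO against WT, of the 10 insulin signaling genes (members) and of the tested genes of each list, as circles that are filled red where the adjusted p from edgeR is under 0.05. Black bars are list medians and the grey band holds the 5th to 95th percentile of all genes tested, -1.02 to 0.74. The 5 red circles are Pdk4, G6pc and Gadd45b among fasting-raised genes and Me1 and Pnpla5 among feeding-raised genes.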

How the data were processed

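Liver mRNA was sequenced with a stranded kit in 2 WT and 2 DDI2-KO libraries, grouped by their labels. The authors deposited raw counts of reads per Ensembl gene, 1 file a library, not normalized. The submitters' processing notes name cutadapt 1.8, STAR 2.5.2b, HTSeq 0.6.1 and GRCm38, while the annotation release and strand setting of the counting are not given in the sources used here. Symbols and coordinates were taken from GENCODE M21 (GRCm38), which matched 48349 of the 48709 identifiers, and promoters from RefSeq (GRCm38.p6).

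Counts were compared with edgeR 4.0.16 in R 4.3.3 (TMM, filterByExpr, robust quasi-likelihood test), and p-values were adjusted by Benjamini-Hochberg over the 13699 genes tested. Lines that name no gene stayed out of library sizes. Reads on no feature were 5.11 and 4.7% of gene reads in WT libraries 1 and 2, with 2.53 and 3.65% in those labelled DDI2-KO. Ambiguous reads were 2.5 and 2.54% in WT, with 3.49 and 3.66% in those labelled DDI2-KO. Lines for alignments that were not unique came to 65.8% in WT library 1 and 47.3 to 51.8% in the others. Alternatives were RLE, upper-quartile and library-total scaling, DESeq2 1.42.0, limma 3.58.1 (voom, or trend with a prior count of 2), no low-count filter or one on mean CPM (at least 1), the test without its robust option, a replicate block, offsets for exon length and GC content (lowess span 0.3) and each library left out. The scripts were tested on simulated data. Libraries of a group differed by more than counting error (chi-square over its degrees of freedom, 64.7 in WT and 34.7 in DDI2-KO).

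The members and the lists were chosen with earlier results of these data known. The text names every member, listed genes with an adjusted p under 0.05 and a set of other pathway genes that includes Igf1r, Pik3ca, Ptpn1, Trib3, Igfbp1, Pck1, Srebf1, Fasn, Pnpla3, Prkaca, Creb1 and Crtc2, and genes outside this rule were chosen after their values were seen. Some genes of the rule are not reported here. No likeness of pattern was computed over 4 libraries.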

Additional observations from a re-analysis of the deposited data

How the results depend on the processing

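With 2 libraries per group, the 95% intervals of 9 of the 10 insulin signaling genes hold 0, and 0 calls do not show that levels were alike. Over 15 alternatives, the direction held for Irs2, Pik3r1, Foxo1, Ppargc1a and Gcgr, and the median over the 10 genes stayed between -0.24 and -0.11. The median of all genes tested moved between -0.068 and 0.034, so no scaling shifted it by over 0.1. The cause of the changes below was not tested, except that a fit with 1 library in a group assumes that it varies like the others. The count of 346 genes called was 907 in DESeq2, 136 in limma-voom, 139 in limma-trend, 1544 without the low-count filter, 152 without robust estimation and 739 with offsets for exon length and GC content, and ranged from 153 (without WT library 1) to 631 (without the second library labelled DDI2-KO) with 1 library left out. The share of calls that were higher was 52.6%, and 37.4% without WT library 2.

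Ppargc1a was the 1 gene of the 10 that passed in some alternatives, with a log2 fold change of -0.85 in DESeq2, -0.85 without the low-count filter and -0.74 with the offsets. In DESeq2 the calls were 2 FOXO partners, 5 fasting-raised and 9 feeding-raised genes. Without the low-count filter they included 2 relay genes (Sh2b2 and Rictor), 3 brakes (Socs2, Socs3 and Phlpp2), 2 FOXO partners (Cebpa and Ppargc1b), 2 genes of glucagon signaling (Creb1 and Pde4b) and 7 feeding-raised genes. Among fasting-raised genes, the fit without that filter called G6pc, Pdk4, Gadd45b and Txnip. With the offsets, 1 FOXO partner (Cebpa), the fasting-raised Pdk4 and Gadd45b, and 6 feeding-raised genes were called. Library totals gave 3 fasting-raised and 4 feeding-raised genes. With 1 library left out, calls ranged from 0 to 2 in the relay (Pik3c2a and Sgk1 without the first library labelled DDI2-KO, Rictor without the second), from 0 to 1 among brakes (Socs3 without the first), from 0 to 1 among FOXO partners (Ppargc1b without the first, Cebpa without the second), from 0 to 2 in glucagon signaling (Creb1 and Pde4b without the second), from 2 to 4 among fasting-raised genes and from 1 to 7 among feeding-raised genes. List medians then ranged from 0.015 to 0.17 for brakes, from -0.29 to 0.061 for FOXO partners and from 0.21 to 0.78 for feeding-raised genes.

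Directions reversed for genes with small fold changes. With upper-quartile scaling Akt2 was at -0.028, Pik3ca at -0.021, Ptpn1 at -0.034 and Fasn at -0.033. Fasn was at -0.012 in limma-voom and -0.011 in limma-trend, where Ptpn1 was at -4e-04, and the offsets put Insr at 0.058. With 1 library left out, fold changes ranged from -0.14 to 0.042 for Insr, from -0.69 to 0.021 for Irs1, from -0.037 to 0.45 for Akt1, from -0.2 to 0.23 for Akt2 and from -0.38 to 0.014 for Foxo3. They ranged from -0.087 to 0.15 for Pik3ca, from -0.23 to 0.24 for Ptpn1, from -0.93 to 0.45 for Trib3 and from -0.51 to 0.14 for Pck1. For Fasn the range was -0.46 to 0.39 and for Srebf1 -0.98 to 0.33.

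The labels give both groups the replicate numbers 1 and 2 without saying what they share, and same-numbered libraries deviated together hardly at all (Pearson r = 0.059 across genes). No known pairing thus backs a block for that number, and such a fit has fewer degrees of freedom for the spread than the main one. With the replicate number as a block, 1108 genes were called, among them 1 of the 10 insulin signaling genes (Ppargc1a, log2 fold change -0.85, adjusted p = 0.0314 from edgeR), 1 relay gene (Rictor), 1 brake (Socs2), 1 FOXO partner (Ppargc1b), 1 gene of glucagon signaling (Creb1), 5 fasting-raised genes (with Igfbp1, 1.32, 0.00639) and 9 feeding-raised genes (with Pnpla3, 1.46, 0.000625), and Fasn was at -0.011.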
